A study of Mus musculus with 10 samples.

Results

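The change from day 11 to day 14 after kidney injury was described in 4 single-cell libraries of mouse kidney cortex, 2 of day 11 and 2 of day 14. Members were all barcodes of these 4 libraries with at least 500 detected genes and at most 50% of unique molecular identifiers (UMIs) from mitochondrial genes. They numbered 23816 of the 52797 cells kept in all 10 libraries, with 5409 and 5283 cells of day 11 and 6941 and 6183 cells of day 14. The series compared normal and injured kidneys of mice aged 4 weeks over days 1 to 14, with a single control library, and all libraries were made by Drop-seq, in which the RNA of each cell is caught on a barcoded bead. All 10 libraries carry the same tissue and age labels, and a day 11 library differs from a day 14 library in its labels only by the day. The kind of injury, the strain, the genotype and the sex are not given in the sources used here. Whether the 2 libraries of a day came from separate animals is also not given, so every p-value measures only the spread between these libraries, which may be technical.

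As background, the proximal tubule reclaims most of the filtered sugar, amino acids and phosphate, and it is the segment most exposed to acute injury. Injured proximal cells switch on injury genes such as Havcr1 (KIM-1), Sox9 and Krt20, attract monocytes through chemokines, and lose transporters as they dedifferentiate. In the weeks after injury the surviving epithelium is known to regain transport and metabolic genes while macrophages leave, with a share of tubule cells remaining in an altered, inflammatory state.

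The libraries of the 2 days differed in depth and in make-up. Median UMIs per cell were 1451 and 1389 on day 11 and 1998 and 2030 on day 14. The deposited day 11 tables reach down to 300 genes per barcode, and the limit of 500 removed 5362 and 5424 of their barcodes but none of day 14. Mitochondrial genes took 16.3% and 12.6% of the UMIs on day 11 and 18.2% and 20.1% on day 14, and ribosomal-protein genes 4.65% and 5.38% against 2.70% and 2.56%. Haemoglobin and other red-cell genes summed to 2144 and 1113 CPM (UMIs of a gene scaled to the same total in every library) on day 11 against 191 and 265 CPM on day 14, with 205 CPM in the control. No more than 4 cell barcodes were shared by any pair of the 4 libraries. Libraries of the same day were not copies of each other. Within proximal cells, defined below, chi-square over its degrees of freedom was 25.7 on day 11 and 16.3 on day 14. Both were above the 1 that sampling of UMIs alone gives, over 11574 genes of day 11 and 12487 of day 14 with enough counts. The drawing of different cells also adds to this value, so it does not measure a difference between animals or preparations.

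Summed over all cells, a small set of genes separated the libraries, and in each of those given here the control stood with day 11. Cwc22, a splicing factor gene on chromosome 2 (mm10 chr2:77881159-77946375, minus strand), was at 11.1 and 9.55 CPM over all cells of the day 11 libraries and at 121 and 97.0 CPM on day 14. The control had 15.0 CPM of Cwc22, while days 1, 2, 4 and 7 lay between 119 and 485 CPM. The 7 near-identical predicted genes of a chromosome 2 cluster that includes Gm13694 (chr2:83978933-83981425, plus strand) moved alike. Gm13694 had 1.16 and 1.51 CPM on day 11, 20.2 and 14.5 CPM on day 14 and 2.38 CPM in the control, and its counts are uncertain because reads can be split between the copies. E030030I06Rik was at 0.0892 and 0.0945 CPM on day 11, 6.76 and 4.57 CPM on day 14 and 0.136 CPM in the control. In the other direction, BC018473, annotated as an antisense RNA (chr11:116752167-116759373, plus strand), had 40.04 and 24.2 CPM on day 11, 127 CPM in the control and at most 3.10 CPM in each of the libraries of days 1, 2, 4, 7 and 14. AA465934, a processed transcript (chr11:83291699-83294632, plus strand), followed the same order with 79.3 and 46.0 CPM on day 11, 74.9 CPM in the control and at most 4.23 CPM elsewhere. The counting strand is not given in the sources used here, and reads of E030030I06Rik, Hspa1a, Slc15a2 and Pzp, each overlapped by an annotated gene on the other strand, cannot be told apart from reads of that gene. Ifi202b, an interferon-inducible gene, had 0 and 0.378 CPM on day 11 and 0.0679 CPM in the control, against 2.04 and 8.31 CPM on day 14. Cwc22 copy number and Ifi202b expression are known to vary between mouse strains, and a difference between groups of animals and the change with the day cannot be told apart in these libraries for any gene below.

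**Figure D1:**
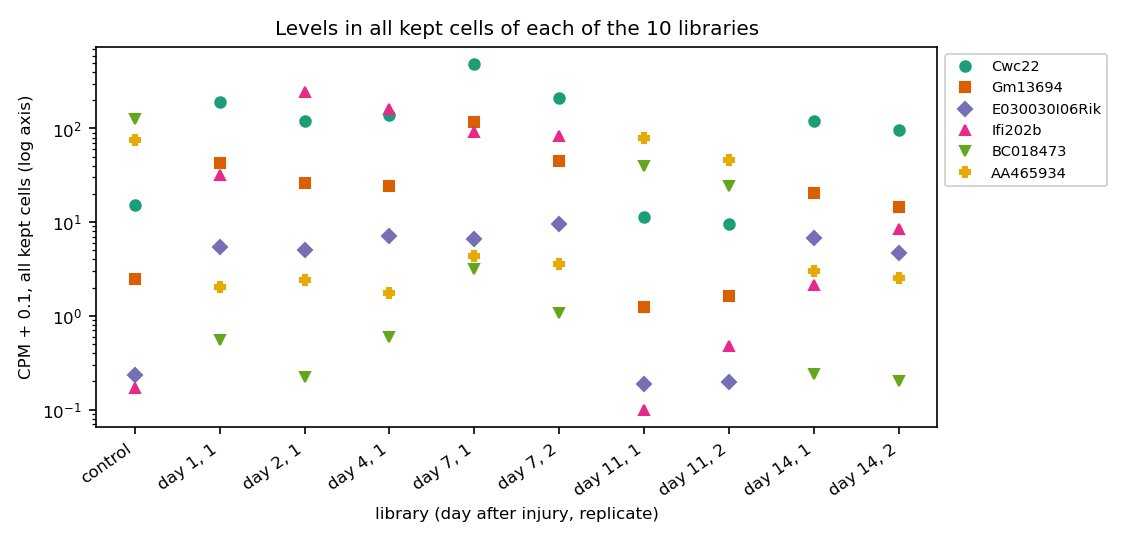
CPM (log axis) of 6 genes in all kept cells of each of the 10 libraries, 1 point per gene and library. The control and both day 11 libraries lie below the others for Cwc22, Gm13694, E030030I06Rik and Ifi202b and above them for BC018473 and AA465934.

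Cells were sorted into 12 classes by gates on fixed marker genes, and a class name stands for its gate. Held-out markers, which the gates did not use, were higher inside the gate than in the other gates in 107 of 112 library and marker pairs. The exceptions were Apela in principal cells, listed at 0 in all 4 libraries, and Pdgfra in stromal cells of day 14 library 1. Proximal cells made up 64.0% (95% exact binomial interval 62.7 to 65.3) and 72.0% (70.7 to 73.2) of the day 11 cells and 74.1% (73.1 to 75.1) and 74.0% (72.9 to 75.1) of the day 14 cells. Intervals cover counting error only. Podocytes, the filter cells of the glomerulus, were 4.23% and 3.35% of cells on day 11 but 0.547% and 0.291% on day 14, which is 229 and 177 cells against 38 and 18. Macrophages were 2.48% and 1.59% on day 11 and 0.634% and 0.890% on day 14, or 134 and 84 cells against 44 and 55. For podocytes and macrophages both libraries of day 14 lay below both of day 11. The control had 1.16% podocytes, which lies between the days, and 0.831% macrophages, which lies between the 2 day 14 libraries.

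The distal convoluted share was 3.03% and 2.80% on day 11 and 5.46% and 4.48% on day 14, so day 14 was higher in both libraries. With mitochondrial UMIs limited to 25% of a cell the shares were 1.88% and 2.11% on day 11 and 2.74% and 1.78% on day 14, which overlap. Endothelial cells were 6.12% and 4.41% on day 11 and 3.92% and 2.91% on day 14, and stromal cells 1.53% and 0.511% against 0.447% and 0.323%, lower on day 14 without overlap. At 1000 UMIs per cell the stromal shares were 1.12% and 0.192% on day 11 and 0.307% and 0.197% on day 14, so that the days overlapped. Both classes overlapped between the days with mitochondrial UMIs limited to 25%. Endothelial shares were then 6.58% and 4.58% on day 11 and 4.99% and 3.94% on day 14. Stromal shares were then 1.68% and 0.542% on day 11 and 0.548% and 0.438% on day 14. Thick limb shares were 7.802% and 6.97% on day 11 and 5.96% and 6.89% on day 14, also lower on day 14 without overlap. The shares of principal cells (3.70% and 2.82% against 3.70% and 5.43%) and intercalated cells (1.22% and 1.84% against 1.58% and 1.36%) lay closer together or overlapped. With mitochondrial UMIs limited to 25% the thick limb shares were 6.29% and 6.42% on day 11 and 3.57% and 3.23% on day 14. Within the proximal gate, cells with more convoluted-segment than straight-segment markers were 48.8% and 42.2% on day 11 and 57.0% and 66.3% on day 14, and 46.9% in the control. Cells with equal numbers of both were 24.9% and 25.8% on day 11 and 20.3% and 17.2% on day 14. These shares count detected markers at unequal depth and were not thinned. A comparison of 2 libraries with 2 cannot go below an exact permutation p of 0.33, so no share was tested. Thinning cells to 1000 UMIs left out 871 and 1116 shallower cells of day 11 and 751 and 588 of day 14. Podocyte, macrophage, endothelial, thick limb and distal convoluted shares then still did not overlap. Thick limb shares were then 8.35% and 7.58% on day 11 and 6.22% and 6.95% on day 14. The part of the barcodes removed on either day was not tested.

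**Figure D2:**
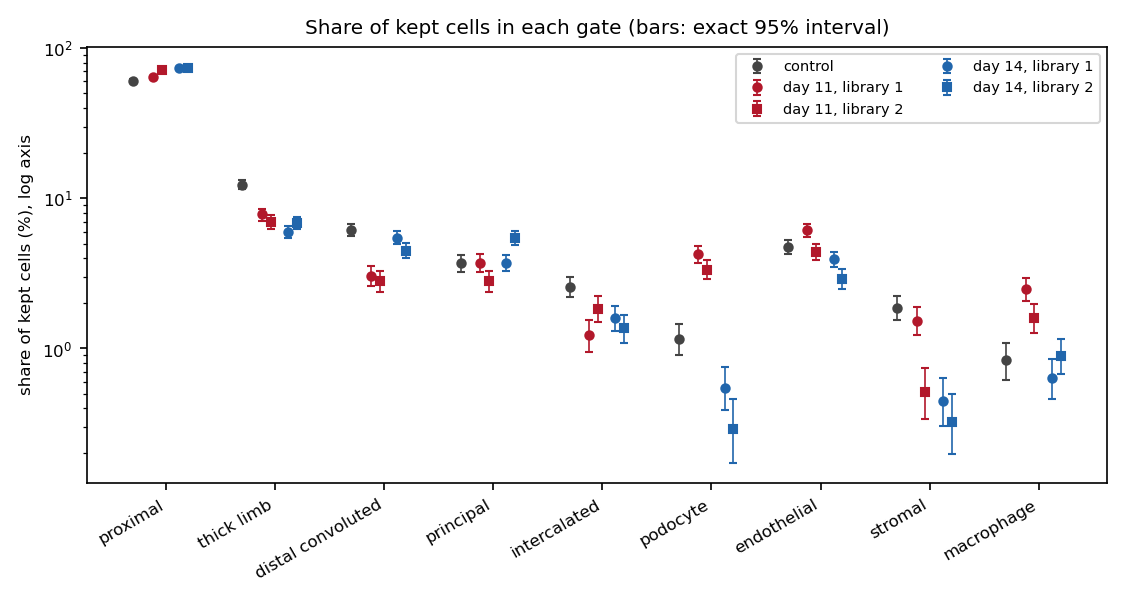
Share of kept cells (percent, log axis) in 9 gates for the control and the 4 libraries of days 11 and 14, with exact 95% binomial intervals as bars. Podocyte, stromal, endothelial, macrophage and thick limb shares of both day 14 libraries lie below both day 11 libraries, and the distal convoluted shares lie above.

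Counts were summed per library within each class, and the 7 classes with at least 30 cells in every library were compared with edgeR (quasi-likelihood fits, p-values adjusted by Benjamini and Hochberg). Levels below are CPM of these sums, a change is the log2 of day 14 over day 11, and "rose" and "fell" are used at an adjusted p of at most 0.05. In proximal cells 918 of 12350 genes tested rose (7.43%) and 1267 fell (10.3%), 2185 in all. When the cells were clustered, the proximal cells of the 2 days were spread unevenly over the clusters. The cluster numbered 2 held 36 and 51 cells of the day 11 libraries and 1341 and 1017 of the day 14 libraries, and cluster 8 held 22 and 38 against 520 and 526. Cluster 5 held 622 and 726 cells of day 11 and 118 and 60 of day 14, whereas clusters 1 and 3 drew on both days. That total was 1314 without day 11 library 2, 661 without day 14 library 1 and 824 without day 14 library 2. The median change of all tested genes was near 0 in each class, from -0.02 to 0.03 on the log2 scale. Among genes whose mean log2 CPM reached 5, the chemokine Cxcl12 and Cwc22 headed the rise in proximal cells. Snhg11, Hao2, Slc15a2 and Pzp came next, and heat-shock genes and haemoglobins headed the fall.

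Cxcl12 (chr6:117168535-117181367, plus strand), which encodes the ligand of the receptor CXCR4, was measured at 14.6 and 10.5 CPM on day 11 and 151 and 98.5 CPM on day 14, and at 11.01 CPM in the control. Both day 14 libraries were far above the day 11 libraries and the control, and the change was 3.27 (SE 0.27, edgeR adjusted p = 0.0012). Hao2, a peroxisomal 2-hydroxyacid oxidase, had 165 and 138 CPM on day 11 and 553 and 1065 CPM on day 14, and 101 CPM in the control, a rise of 2.37 (SE 0.29). The peptide transporter gene Slc15a2 (PEPT2) had 19.8 and 23.4 CPM on day 11 and 116 and 94.3 CPM on day 14 and rose by 2.24 (SE 0.17), with the control at 21.02 CPM. For Hao2, Slc15a2 and Cxcl12 the control stood with day 11, and for Snhg11, a host gene of small nucleolar RNAs, it lay between the days. Snhg11 had 10.6 and 10.5 CPM on day 11 and 60.8 and 51.6 CPM on day 14, and 36.3 CPM in the control, a rise of 2.37. Pzp, an alpha-2-macroglobulin family gene, had 13.5 and 15.1 CPM on day 11 and 66.5 and 42.4 CPM on day 14 and rose by 1.88, and Cwc22 rose by 3.13.

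Inducible heat-shock genes were among the largest falls in proximal cells. Hspa1a, one of the adjacent chromosome 17 copies of inducible HSP70, had 200.1 and 174 CPM on day 11 and 6.22 and 6.06 CPM on day 14, with 23.9 CPM in the control. It fell by 4.97 (SE 0.17, edgeR adjusted p = 3.92e-05), to a level below the control. Hspa1b, the neighbouring near-identical copy, had 90.3 and 61.2 CPM on day 11 and 2.35 and 1.85 CPM on day 14 and fell by 5.20 (SE 0.27), and the authors' counting could split reads between these copies. Hspb1, the small heat-shock protein HSP27, had 112 and 70.97 CPM on day 11 and 3.56 and 3.07 CPM on day 14 and fell by 4.83 (SE 0.28). The days did not overlap for these 3 genes, a condition of the rule that named them. The co-chaperone gene Dnajb1 fell from 82.05 and 70.4 CPM to 24.7 and 24.7 CPM. Of the 20 listed heat-shock genes 5 fell and 1 rose in proximal cells, where 10.3% of all genes fell and 7.43% rose. The median change of the list was -0.34.

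The haemoglobin genes Hba-a1, Hba-a2, Hbb-bs and Hbb-bt all fell in proximal cells. Hba-a1 had 659.9 and 327 CPM on day 11 and 36.3 and 24.03 CPM on day 14 and a change of -4.08 (SE 0.37), with 43.5 CPM in the control. The same 4 genes fell in thick limb, principal and intercalated cells and passed in neither distal convoluted nor endothelial cells, and the red-cell total of the whole libraries was 2144 and 1113 CPM on day 11 against 191 and 265 CPM on day 14. The part of free red-cell RNA in these falls was not tested.

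**Figure D3:**
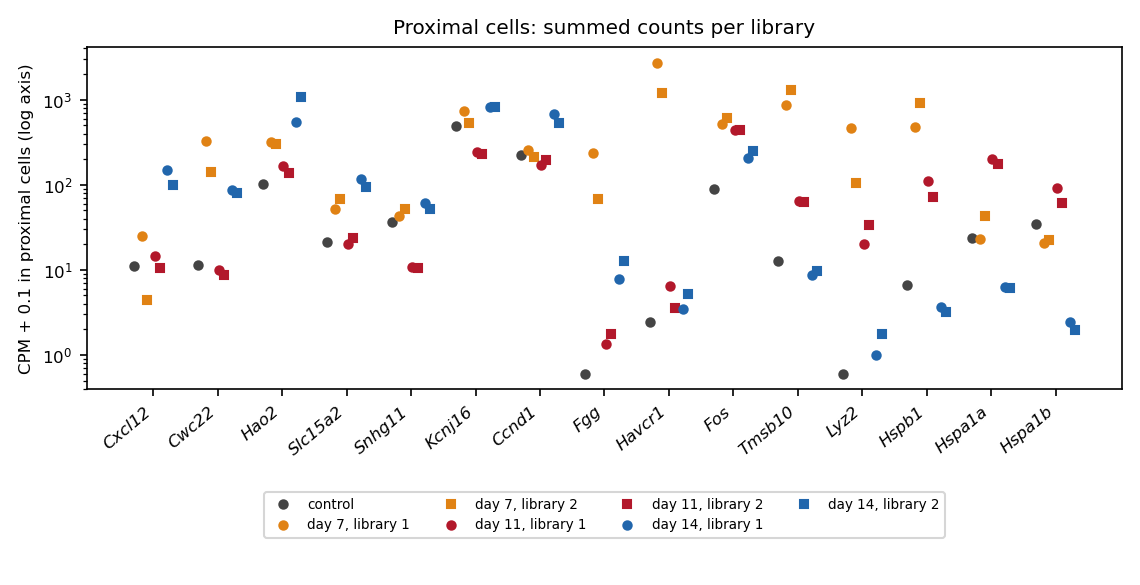
CPM plus a small offset (log axis) of 15 genes in proximal cells, 1 point per library, for the control and days 7, 11 and 14. The day 14 points of Hspa1a, Hspa1b and Hspb1 lie below all other points shown, and those of Cxcl12 lie above them.

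Genes listed for injured tubule were mostly lower on day 14. Of 28 listed injury genes 25 were tested in proximal cells, 16 fell and none rose, where 10.3% of all genes fell. The median change of the list was -1.52. The actin-binding Tmsb10 had 63.6 and 62.99 CPM on day 11 and 8.51 and 9.63 CPM on day 14, against 12.4 CPM in the control, and fell by 2.85 (SE 0.15, edgeR adjusted p = 0.000271). The day 14 values were below both day 11 values and close to the control. Tmsb10 also fell by 1.71 in distal convoluted and by 1.71 in intercalated cells. Sox9, a transcription factor of repairing tubule, had 3.99 and 5.32 CPM on day 11 and 0.699 and 0.357 CPM on day 14 and fell by 3.14. The calcium-binding S100a6 had 34.1 and 25.5 CPM on day 11 and 2.29 and 5.78 CPM on day 14 and fell by 2.95. S100a6 is also listed with the macrophage genes. Krt19, a keratin, had 43 and 10 UMIs on day 11 and 3 and 0 UMIs on day 14. Podocyte and macrophage markers were lower in the proximal gate too, and principal markers were not. The podocyte markers summed to 36.0 and 31.6 CPM on day 11 and to 5.59 and 5.28 CPM on day 14. The macrophage markers went from 28.9 and 33.7 CPM to 11.1 and 11.7 CPM. The principal markers went from 93.9 and 89.6 CPM to 101 and 136 CPM. The part of RNA from other cells in the falls of injury genes was not tested. Without day 14 library 1 the count of injury genes that fell was 8, and without day 14 library 2 it was 10.

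The classic injury markers themselves were near their floor on both days. Havcr1 had 6.30 and 3.50 CPM on day 11 and 3.37 and 5.06 CPM on day 14, which overlap, and 2.36 CPM in the control (edgeR adjusted p = 0.662). On day 7 its level had been 2733 and 1215 CPM. Lcn2, which encodes the secreted injury protein NGAL, had 3.99 and 5.46 CPM on day 11 and 3.43 and 0.784 CPM on day 14 (edgeR adjusted p = 0.197), and the adhesion molecule Vcam1 had 6.61 and 4.06 CPM on day 11 and 0.953 and 2.92 CPM on day 14 (edgeR adjusted p = 0.0799). Neither passed the test, though in both genes the day 14 values lay below those of day 11. Krt20 was too low to be tested, with at most 0.154 CPM in each of the 4 libraries. Cells with a Havcr1 UMI were 0.924% and 0.658% of proximal cells on day 11 and 0.991% and 1.11% on day 14. These shares are at unequal depth, with medians of 1439 and 1372 UMIs on day 11 and 2004 and 1992 UMIs on day 14.

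Fgg, the fibrinogen gamma chain, went the other way. It had 1.23 and 1.68 CPM on day 11 and 7.75 and 12.6 CPM on day 14, with 0.498 CPM in the control, and rose by 2.74 (SE 0.37, edgeR adjusted p = 0.00427). On day 7 Fgg had been at 238 and 68.6 CPM, above both later days. Proximal cells with an Fgg UMI were 0.202% (95% exact interval 0.0813 to 0.416) and 0.289% (0.145 to 0.517) on day 11 and 2.16% (1.78 to 2.59) and 2.99% (2.52 to 3.53) on day 14. With every cell thinned to 1000 UMIs the shares were 0.102% and 0.132% on day 11 and 1.01% and 1.31% on day 14. In thick limb cells, which should lack Fgg, the shares with a UMI were 0% and 0.272% on day 11 and 0% and 0.704% on day 14, at median depths of 2269, 1976, 2356 and 2555 UMIs against 1439, 1372, 2004 and 1992 in proximal cells. Of 11 complement and fibrinogen genes tested in proximal cells, Fgg was the 1 that rose and 4 fell, Cfi and Serping1 among them. Over all genes tested there, 7.43% rose and 10.3% fell.

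Chemokine and macrophage genes fell in the proximal gate, and markers of macrophages were lower beside them. Ccl2, a monocyte attractant, had 4.30 and 3.78 CPM on day 11 and 0.0635 and 0.214 CPM on day 14, and the neutrophil attractant Cxcl1 had 29.8 and 31.6 CPM on day 11 and 12 and 9.77 CPM on day 14 and fell by 1.54 (SE 0.17). Cxcl2, of the same family, had 12 and 30 UMIs on day 11 and 1 UMI in each day 14 library. In all, 6 of 16 tested chemokine and cytokine genes fell and none rose, where 10.3% of all genes fell and 7.43% rose. Lyz2, the lysozyme of macrophages, had 20.3 and 33.3 CPM on day 11 and 0.889 and 1.64 CPM on day 14 in proximal cells and fell by 4.46, while over all cells of the libraries it went from 272 and 266 CPM to 14.03 and 25.8 CPM. The 7 macrophage gate markers summed to 28.9 and 33.7 CPM in the proximal gate on day 11 and to 11.1 and 11.7 CPM on day 14, with a median of 0 UMIs per cell. All 7 were detected there in 3 of the libraries and 6 in day 14 library 1. The 6 podocyte markers summed to 36.0 and 31.6 CPM and then 5.59 and 5.28 CPM, and the 8 endothelial markers to 29.96 and 46.1 CPM and then 19.9 and 18.6 CPM. Of the endothelial genes listed, Cldn5, Esam and Angpt2 were among the 8 of 22 that fell in proximal cells, and of the macrophage genes listed 11 of 21 fell. The part of RNA from these cell types in the falls was not tested.

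Transporters of the proximal tubule rose more often than they fell. Of 35 listed and tested, 9 rose and 1 fell, where 7.43% of all genes rose and 10.3% fell. The others did not pass, and the median change of the list was 0.25. Slc5a12, a sodium-coupled lactate transporter, had 80.1 and 64.5 CPM on day 11 and 159 and 175 CPM on day 14 and rose by 1.16 (SE 0.15), with the control at 75.9 CPM. The amino acid transporter genes Slc7a8 and Slc7a7 rose by 1.52 and 0.96, and the phosphate transporter Slc34a3 by 0.89. All convoluted-segment markers, Slc5a12 and Slc7a7 among them, are members of this transporter list, so the list and the segment share partly rest on the same counts. Cells with more of those markers were 48.8% and 42.2% of proximal cells on day 11 and 57.0% and 66.3% on day 14, at unequal depth. The part of this shift in the rises was not tested. In the straight-segment proximal cells alone Slc34a3 reversed, to -0.17. The potassium channel subunit Kcnj16, listed with distal transport genes, had 241 and 232 CPM on day 11 and 816 and 816 CPM on day 14 and 493 CPM in the control. Both day 14 values were above the control and both day 11 values below it, with a rise of 1.74 (SE 0.13). The magnesium channel kinase Trpm7 rose by 1.02, and Sgk1, a kinase of sodium transport, fell by 1.48.

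Of 32 fatty acid oxidation genes tested in proximal cells 2 rose and 6 fell, where 7.43% of all genes rose and 10.3% fell. Pdk4, a kinase that holds back glucose oxidation, fell by 1.18, while Acadm, a medium-chain fatty acid dehydrogenase, and Ppargc1a, a regulator of mitochondrial genes, rose by 0.69 and 0.64. Of 16 glycolysis genes 5 fell, Gapdh from 224 and 326 CPM to 114 and 144 CPM, and none rose. Of 30 gluconeogenesis and amino acid genes 2 rose and 1 fell, no larger a share than over all genes. The gluconeogenic enzyme Fbp1 rose by 0.51, and Cth, which makes cysteine, fell by 1.20.

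Cyp51, an enzyme of cholesterol synthesis, had 149 and 138 CPM on day 11 and 449 and 332 CPM on day 14 and rose by 1.40. Of 29 xenobiotic and sterol genes tested, of 31 listed, 9 rose and 4 fell, where 7.43% of all genes rose and 10.3% fell. Cyp7b1, an oxysterol hydroxylase, rose by 1.44. Of 24 antioxidant genes tested 8 fell, 1 rose and 15 did not pass, with a median change of -0.18 against 0.01 over all genes tested in proximal cells. The glutathione peroxidase Gpx4 had 1026 and 1162 CPM on day 11 and 561 and 515 CPM on day 14 and fell by 1.07, Gstp1 fell by 1.21, Hmox1 by 1.0 and the metallothionein Mt1 by 0.80. Kap, an androgen-dependent proximal transcript, had 52992 and 52498 CPM on day 11 and 55774 and 44162 CPM on day 14 (edgeR adjusted p = 0.704), and its days overlapped.

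Of 21 cell-cycle genes tested in proximal cells 2 rose and 3 fell, shares near those over all genes tested (7.43% and 10.3%). Ccnd1, cyclin D1, had 169.6 and 197 CPM on day 11 and 685 and 535 CPM on day 14, with 223 CPM in the control, and rose by 1.69 (SE 0.16, edgeR adjusted p = 0.00176). Cdkn1a, which encodes the cell-cycle inhibitor p21, had 24.9 and 19.04 CPM on day 11 and 4.64 and 5.06 CPM on day 14 and fell by 2.22 (SE 0.21). The libraries of the 2 days did not overlap for either gene, and this held for all 2185 genes called in proximal cells. The thymidylate synthase gene Tyms rose by 0.64 and Stmn1 fell by 0.72. Of 20 matrix and profibrotic genes tested, of 26 listed, 6 fell, among them Sparc (by 1.49), Vim (by 1.58) and Fn1 (by 1.84), and none rose. The 8 stromal markers summed to 26.6 and 22.4 CPM in the proximal gate on day 11 and to 8.26 and 6.77 CPM on day 14, with 7 of 8 detected in day 14 library 2 and a median of 0 UMIs per cell, and the part of stromal RNA in these falls was not tested.

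The ribosomal-protein genes are a list chosen after the data were seen. Of those tested, 76 of 84 fell in proximal cells, 69 of 83 in thick limb, 70 of 83 in distal convoluted, 64 of 83 in principal, 38 of 80 in intercalated, 46 of 82 in endothelial and 17 of 80 in macrophage cells. None rose in any class, and the medians ran from -0.92 in proximal to -0.59 in macrophage cells. The share of all tested genes that fell ran from 5.09% in endothelial to 10.3% in proximal cells. Over all classes, 1421 genes were tested in all 7, of which 3 rose in all 7 and 39 fell in all 7. The 39 held 16 ribosomal-protein symbols, 16 predicted Gm genes, and 7 others, which were 2410018M08Rik, Atp5l-ps1, Emd, Hspa1a, Miox, Myl6 and Ppia. The 3 that rose everywhere were Cwc22 and the MHC class I genes B2m and H2-K1. B2m rose by 0.80 in intercalated cells to 1.61 in principal cells, and H2-K1 by 1.26 in endothelial to 2.33 in intercalated cells. In endothelial cells B2m had 3176 and 2232 CPM on day 11 and 7546 and 6338 CPM on day 14.

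Respiratory-chain genes are encoded partly in the nucleus and partly in the mitochondrion. The share of all tested genes that rose ran from 2.76% in intercalated to 7.43% in proximal cells. The share that fell ran from 5.09% in endothelial to 10.3% in proximal cells, and in principal cells 4.45% rose and 6.91% fell. Of 53 nuclear-encoded genes 17 fell and none rose in proximal cells, with Atp5l, an ATP synthase subunit, at 716 and 914 CPM on day 11 and 418 and 361 CPM on day 14. Of the 13 mitochondrially encoded genes 3 rose in proximal cells and none fell. In thick limb cells 11 of the 13 rose, mt-Nd1 with 10825 and 10095 CPM on day 11 and 25313 and 28677 CPM on day 14 and a rise of 1.42 (SE 0.11), while 12 of the 53 nuclear-encoded genes fell. In distal convoluted cells 9 mitochondrial genes rose and 1 fell, in principal cells 8 rose and in intercalated cells 6 rose. In principal cells 12 of the 53 nuclear-encoded genes rose and none fell, Atp5a1 by 0.79 and Sdha by 0.80. In endothelial cells 3 mitochondrial genes fell, mt-Atp6, mt-Co1 and mt-Co2, and these 3 calls were lost without either day 14 library. In macrophages 2 of the 13 fell and none rose. Without day 11 library 1 or 2 the thick limb count was 7 or 6, and without either day 14 library the principal cell count of nuclear-encoded genes was 6. The mitochondrial share of all UMIs was itself higher on day 14, and its part in these counts was not tested.

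**Figure D4:**
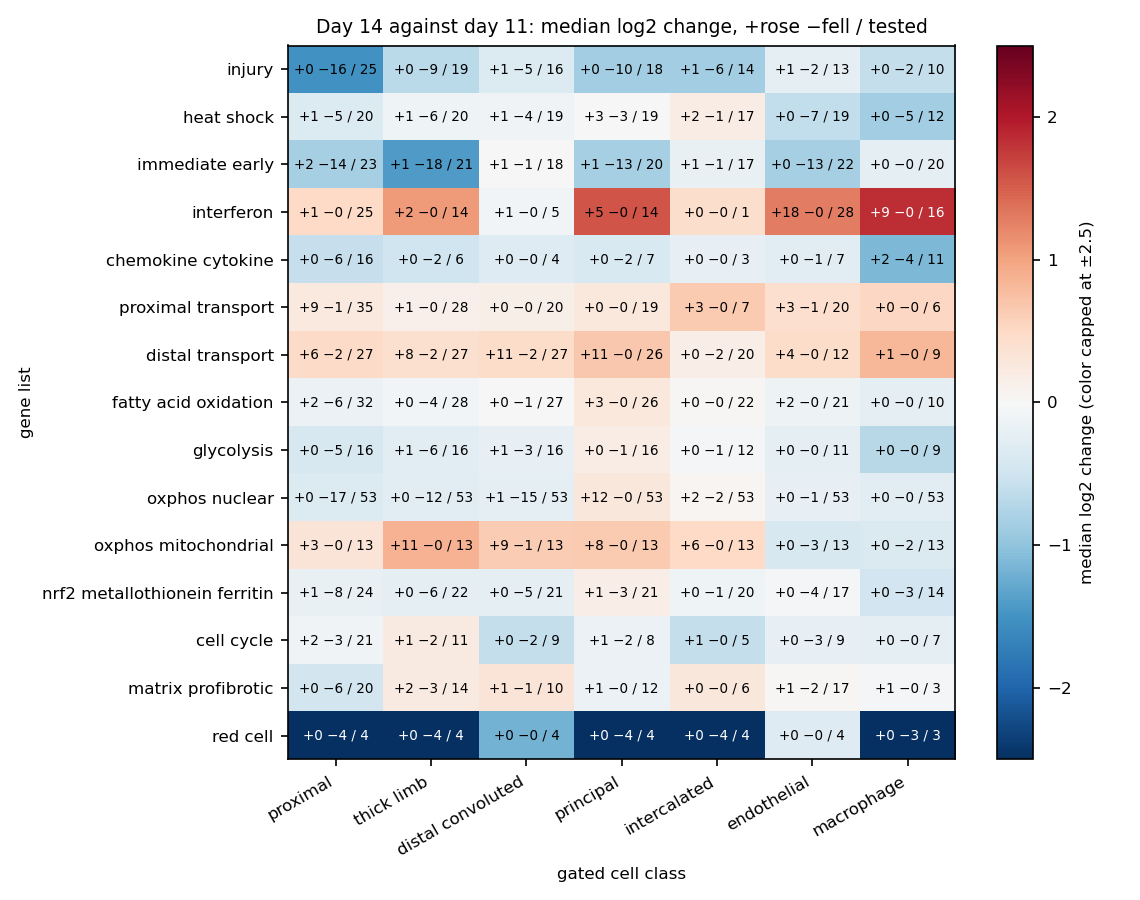
Median log2 change (color) of 15 gene lists in the 7 tested classes, with the numbers of genes that rose (+), fell (−) and were tested in each cell. Immediate early genes are lowest in thick limb cells, and interferon genes are highest in macrophage cells.

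Thick limb cells, which reabsorb salt and secrete uromodulin and EGF, had 419 of 9572 genes risen (4.38%) and 649 fallen (6.78%), 1068 in all. The total rested on day 11, with 190 calls without its library 1 and 29 without its library 2. Egf, the precursor of epidermal growth factor, had 2213 and 3004 CPM on day 11 and 6572 and 6029.9 CPM on day 14, against 7067 CPM in the control. Both day 14 values were above both day 11 values and near the control, a rise of 1.32 (SE 0.14, edgeR adjusted p = 0.000222). Of 27 distal transport genes 8 rose and 2 fell, S100g, a calcium-binding protein, by 0.99 and Kcnj16 by 1.08. Fxyd2, a regulator of sodium transport, fell by 1.18. Gstt1, a glutathione transferase, had 19.02 and 44.8 CPM on day 11 and 206 and 229 CPM on day 14 and rose by 2.88. Over all cells Gstt1 had 22.6 and 26.8 CPM on day 11 and 97.5 and 130 CPM on day 14. The control stood with day 11 at 21.4 CPM, while days 1, 2, 4 and 7 lay between 67.7 and 192 CPM. The clock output gene Dbp, whose level follows the time of day, rose by 2.32. It had 9.80 and 19.2 CPM on day 11 and 96.5 and 38.4 CPM on day 14.

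Most immediate early genes of thick limb cells were lower on day 14. Of 21 tested immediate early genes, which switch on within minutes of a stimulus, 18 fell and 1 rose, with a median change of -1.41. Of 20 heat shock genes 6 fell and 1 rose there, with a median change of -0.11, where 6.78% of all genes fell and 4.38% rose. Atf3, a stress-induced transcription factor, had 401 and 624 CPM on day 11 and 112 and 112 CPM on day 14 and fell by 2.14 (SE 0.19, edgeR adjusted p = 9.2e-05). The cytokine-signalling inhibitor Socs3 had 174 and 223 CPM on day 11 and 31.8 and 40.6 CPM on day 14 and fell by 2.39 (SE 0.19). Day 14 values of both lay between day 11 and the control, which had 65.05 and 17.1 CPM. Injury genes fell in 9 of 19 tested, Krt18 by 3.43 and Lcn2, which had 73.8 and 54.4 CPM on day 11 and 15.6 and 18.9 CPM on day 14, by 1.85. Only 6 immediate early genes fell without day 11 library 2, in a fit with 22 of the genes tested.

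Distal convoluted cells, which fine-tune salt and calcium, had 234 of 7020 genes risen (3.33%) and 467 fallen (6.65%). Of 27 distal transport genes 11 rose and 2 fell. S100g had 7138 and 9313 CPM on day 11 and 17288 and 12761 CPM on day 14 and rose by 0.92 (SE 0.12). Klhl3, an adaptor that sets the level of the WNK kinases, had 124 and 134 CPM on day 11 and 284 and 252 CPM on day 14 and rose by 1.11, and Slc8a1, the sodium-calcium exchanger, rose by 1.21. For each of these 3 genes the days did not overlap, and this held for 700 of the 701 genes called in this class. In the distal convoluted gate the principal markers summed to 97.2 and 138 CPM on day 11 and to 194 and 235 CPM on day 14, and the thick limb markers to 1096 and 1236 CPM and then to 2066 and 1284 CPM. The part of RNA of these neighbouring segments in the rises was not tested. Abca13, a lipid transporter family gene, fell by 2.60, the proton pump subunit Atp4a by 2.06 and the histone gene Hist2h2ac by 2.24. Cryab, a small heat-shock protein of the lens and kidney, had 10.3 and 14.9 CPM on day 11 and 43.7 and 53.9 CPM on day 14 and rose by 1.98. Immediate early genes gave 1 rise and 1 fall of 18 tested here, with a median change of 0.01.

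Principal cells, which take up sodium and water in the collecting duct, had 311 of 6992 genes risen (4.45%) and 483 fallen (6.91%). BC018473 had 209 and 130 UMIs on day 11 and 0 in both day 14 libraries, so it was at least 264-fold lower over the day against a floor of 3 counts. S100g had 9616 and 6732 CPM on day 11 and 23501 and 17449 CPM on day 14 and rose by 1.41 (SE 0.22). The kinases Sgk1, an aldosterone-induced regulator of the epithelial sodium channel, and Wnk1 rose by 1.19 and 1.45. Sgk1 had 65.9 and 119 CPM on day 11 and 232 and 159 CPM on day 14, and 19.3 CPM in the control, so both days stood above the control. Among 26 distal transport genes 11 rose and none fell, with 7 risen without day 14 library 2. The distal convoluted gate markers summed to 1050.2 and 1338 CPM in the principal gate on day 11 and to 1799.5 and 2055 CPM on day 14, with 4 of 5 detected in day 14 library 1 and all 5 in the others. The principal markers summed to 27765 and 28623 CPM and then 21385 and 20183 CPM, and the part of distal convoluted cells or their RNA in the rises was not tested. Spock3, a matrix proteoglycan gene, had 2 and 1 UMIs on day 11 and 44 and 59 on day 14, and Slc15a2 had 2 and 1 and then 55 and 40. Of 20 immediate early genes 13 fell, Dusp1, a MAP kinase phosphatase, by 2.04 (SE 0.22), and Klf9 was the 1 that rose. Without day 14 library 2 the number that fell was 8.

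Intercalated cells, which secrete acid or base, were the smallest tubular class, with 66 to 110 cells per library. In them 91 of 3294 genes rose (2.76%) and 180 fell (5.46%), 271 in all, against 452 without day 11 library 1 and 142 without day 14 library 1. Clu, the secreted chaperone clusterin, had 2634 and 1518 CPM on day 11 and 409 and 493 CPM on day 14, with 379 CPM in the control, and fell by 2.08 (SE 0.27, edgeR adjusted p = 0.00332). Both day 14 values were close to the control and well under day 11. Tmem213, an intercalated cell gene, fell by 0.75, and of 20 distal transport genes tested none rose and 2 fell. In the intercalated gate the principal markers summed to 1115 and 1144 CPM on day 11 and to 772 and 733 CPM on day 14, and the distal convoluted markers to 607 and 601 CPM and then to 211 and 235 CPM. The part of either in these values was not tested. Cryab had 57.05 and 82.4 CPM on day 11 and 225 and 201 CPM on day 14 and rose by 1.74. Without day 14 library 1 the Tmem213 and Fos calls were lost.

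The number of immediate early genes that fell varied by class, and the difference between classes was tested for 2 pairs. Over all genes tested, 10.3% fell and 7.43% rose in proximal cells, and 5.09% fell in endothelial and 5.46% in intercalated cells. In proximal cells 14 of 23 fell and 2 rose, with a median change of -0.83, and Fos had 446 and 445 CPM on day 11 and 209 and 248 CPM on day 14 and fell by 1.01 (SE 0.13). The number that fell was 8 without day 14 library 1 and 9 without day 14 library 2. In endothelial cells 13 of 22 fell, and 8 without either day 14 library, and in intercalated cells 1 fell and 1 rose of 17. The change was higher, that is less negative, in proximal than in thick limb cells for 7 of 23 genes and lower for 1. Of all genes tested for this difference 0.618% were higher and 0.939% lower. Dusp1 had 247 and 309.8 CPM on day 11 and 213 and 253 CPM on day 14 in proximal cells and 252 and 231 CPM on day 11 and 58.04 and 62.8 CPM on day 14 in thick limb cells, a difference of changes of 1.68 (SE 0.18, edgeR adjusted p = 7.89e-07). For Atf3, Klf6 and Fosb the differences were 1.48, 0.98 and 0.93. Gadd45b, a stress gene, was the 1 gene of the list with a lower change in proximal cells, by -1.24 (edgeR adjusted p = 0.0432). Against endothelial cells, where 0.421% of all genes were higher and 1.13% lower, the balance was the other way. There 1 of 23 genes was higher (Klf4) and 4 were lower in proximal cells (Socs3, Gadd45b, Gadd45g and Klf2), with a median difference of 0.04. Socs3 had the lowest adjusted p of these, with a difference of -1.40 (SE 0.26, edgeR adjusted p = 1.38e-05).

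**Figure D5:**
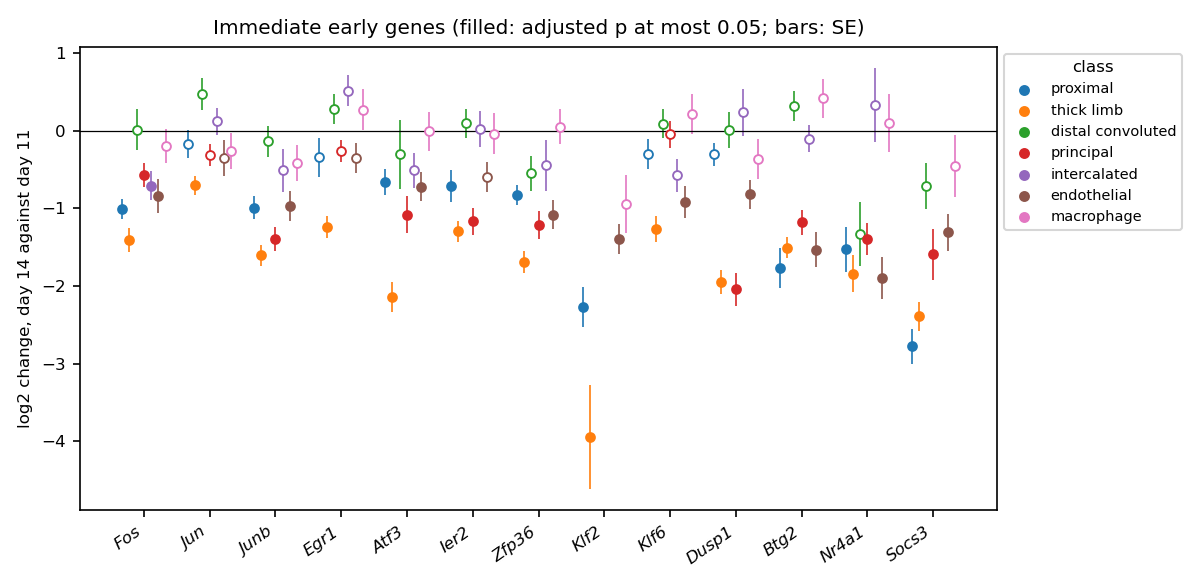
Log2 change from day 11 to day 14 of 13 immediate early genes in the 7 tested classes, with SE bars and filled points where the adjusted p was at most 0.05. Thick limb cells lie at or near the bottom for Atf3, Junb, Zfp36 and Klf2, and most distal convoluted, intercalated and macrophage points are open.

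Endothelial cells had 168 of 5459 genes risen (3.08%) and 278 fallen (5.09%), 446 in all and 297 without day 14 library 2. Interferon-stimulated genes rose as a group, with 18 of 28 tested up, none down and a median change of 1.27. Ifit3, an inhibitor of viral translation, had 1 and 1 UMIs on day 11 and 20 and 112 on day 14. Irf7, the master regulator of interferon responses, had 60.1 and 33.5 CPM on day 11 and 86.4 and 429 CPM on day 14, with 41.9 CPM in the control, and rose by 2.26 (SE 0.49, edgeR adjusted p = 0.00431). Oasl2 and Ifit2 rose by 2.52 and 2.48. Ifi202b had 0 UMIs in both day 11 libraries and 14 and 51 on day 14, at least 27.1-fold higher against a floor of 3 counts over the day. In these genes day 14 library 2 was several times above library 1, which lay closer to day 11. Without day 14 library 2 the list gave 3 rises of 28 and the Irf7, Oasl2 and Ifit2 calls were lost, and DESeq2 called 4 of the 28.

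The promoter sequences of the interferon genes are shown because interferon genes rose together in endothelial cells and macrophages. Promoter windows from RefSeq (GRCm38.p6), 250 bases before to 50 after each annotated start, were searched on both strands for the core of the interferon-stimulated response element, a GAAA block followed by any 2 bases and another GAAA block. A match was found for 11 of the 23 listed interferon genes with a promoter in the table, against 3.99% of all 27025 genes in the table (3.44% of its 32851 windows). The capitals mark the matches and the overlapping copies of it, as either strand's letters, in these stretches at chr19:34583353-34583436 (plus strand) for Ifit3, chr19:34640765-34640833 (plus strand) for Ifit1 and chr4:156200855-156200916 (minus strand) for Isg15.
Ifit3: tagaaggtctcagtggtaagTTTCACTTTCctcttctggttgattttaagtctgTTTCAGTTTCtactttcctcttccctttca
Ifit1: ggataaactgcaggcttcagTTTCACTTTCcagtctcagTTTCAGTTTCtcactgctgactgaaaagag
Isg15: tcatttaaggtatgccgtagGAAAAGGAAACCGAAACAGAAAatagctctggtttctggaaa
A match is a description of these letters and not a shown binding site. Irf7, Oasl2 and Ifit2, which also rose, had no match in their windows.

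Heat-shock genes fell in endothelial cells too. Hspa1a had 1783 and 1462 CPM on day 11 and 170.2 and 161 CPM on day 14, with 319 CPM in the control, and fell by 3.36 (SE 0.21, edgeR adjusted p = 6.08e-10). Hspb1 had 2981 and 3393 CPM on day 11 and 748 and 709.8 CPM on day 14 and fell by 2.19 (SE 0.21), and Dnajb1 fell by 2.46. In each of these the day 14 values were below both day 11 values and the control. In total 7 of 19 heat-shock genes fell and none rose, where 5.09% of all genes fell and 3.08% rose. Windows of the heat-shock genes were searched on both strands for the heat shock element, with blocks of GAA, TTC and GAA each separated by any 2 bases, and 4 of 16 listed genes with a promoter held it, against 0.662% of all genes (0.603% of all windows). The bidirectional window of Hspd1 and Hspe1, mitochondrial chaperonin genes, is shown as an example, at chr1:55088039-55088096, written on the plus strand with the matches in capitals.
Hspe1: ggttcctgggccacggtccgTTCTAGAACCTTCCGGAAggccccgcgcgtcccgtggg
Hspa1a, Hspa1b, Hspb1 and Dnajb1 had no match to these letters in their windows, and Hspe1 fell by 0.80 in distal convoluted cells.

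Of 24 listed vascular genes tested in endothelial cells 3 rose and 3 fell, where 3.08% of all genes rose and 5.09% fell. The median change of the list was 0.13. Tek, the angiopoietin receptor, had 259.7 and 184 CPM on day 11 and 402 and 594 CPM on day 14 and rose by 1.07 (SE 0.23). Klf2, a flow-induced transcription factor that also counts among the immediate early genes, had 1386 and 1204 CPM on day 11 and 510.5 and 524 CPM on day 14 and fell by 1.39. The water channel gene Aqp1, also abundant in proximal tubule, had 223 and 124 CPM on day 11 and 40.5 and 24.8 CPM on day 14 and fell by 2.44. The 8 proximal markers summed to 3215 and 4032 CPM in the endothelial gate on day 11 and to 4221 and 4188 CPM on day 14. Timp3, an inhibitor of matrix proteases, rose by 0.73, and the matricellular Ctgf and Cyr61 fell by 1.05 and 0.96. Without day 14 library 2 the calls of Tek, Ly6a and Timp3 were lost.

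Macrophages were few, with 134, 84, 44 and 55 cells, and 102 of 1864 genes rose (5.47%) and 108 fell (5.79%), 210 in all. The total was 87 without day 11 library 2 and 76 without either day 14 library. Plac8, a gene of circulating monocytes, had 44.03 and 20.6 CPM on day 11 and 835 and 1437 CPM on day 14 and rose by 5.0 (SE 0.44, edgeR adjusted p = 1.1e-05). Ly6c2, the marker of inflammatory monocytes, had 3 and 0 UMIs on day 11 and 14 and 143 on day 14, most of it in library 2. Both genes were higher in both day 14 libraries. The chemokine Ccl8 had 231 and 60 UMIs on day 11 and 0 in both day 14 libraries, at least 40.3-fold lower against a floor of 3 counts over the day. Ccl17, another chemokine, had 76 and 39 UMIs on day 11 and 1 UMI in each day 14 library. Lyz1, a lysozyme gene, had 2598 and 4371 CPM on day 11 and 551 and 456 CPM on day 14 and fell by 2.84 (SE 0.29, edgeR adjusted p = 4.62e-05). Of 23 tested macrophage-state genes 4 rose and 9 fell. Spp1, osteopontin, had 504 and 3918 CPM on day 11 and 50.1 and 350.4 CPM on day 14 and fell by 3.34, and the range over the day 11 libraries was wide.

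Interferon genes rose in macrophages too, with 9 of 16 tested up, none down and a median change of 1.84. Over all genes tested, 5.47% rose in macrophages and 4.45% in principal cells. Irf7 had 19.6 and 6.86 CPM on day 11 and 200.3 and 584 CPM on day 14 and rose by 4.71, and Isg15, a ubiquitin-like modifier, had 44.03 and 34.3 CPM on day 11 and 100.2 and 561 CPM on day 14 and rose by 3.07. As in endothelial cells, library 2 of day 14 was the higher one, and without it 0 of 18 interferon genes passed in macrophages. Without it 6 of the 18 had an unadjusted p under 0.05, and DESeq2 called 6 with all 4 libraries. The edgeR count was 16 without day 11 library 1 and 14 without day 14 library 1, where more of the list could be tested. In principal cells 5 of 14 interferon genes rose, Isg15 with 9.42 and 8.69 CPM on day 11 and 22.4 and 178 CPM on day 14, and 0 of 10 without day 14 library 2, where 1 had an unadjusted p under 0.05. The count was 2 without day 11 library 1, 11 without day 11 library 2, 18 without day 14 library 1 and 2 with DESeq2. In proximal cells, where 7.43% of all genes rose, 1 of 25 passed. This was Lgals3bp, a galectin-binding protein, with 6.61 and 4.48 CPM on day 11 and 27.6 and 48.2 CPM on day 14. There Ifit1 had 0.615 and 1.12 CPM on day 11 and 1.46 and 16.8 CPM on day 14 (edgeR adjusted p = 0.0931), and Rtp4 had 1.38 and 1.68 CPM on day 11 and 1.65 and 11.6 CPM on day 14 (edgeR adjusted p = 0.151). Neither passed, and in both only day 14 library 2 stood apart.

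Heat-shock genes fell in macrophages in 5 of 12 tested, Hspa8, the constitutive HSP70, from 1429 and 2072 CPM to 584 and 654 CPM, and 3 fell without day 14 library 1. Over all genes tested in macrophages 5.79% fell and 5.47% rose. The NF-kB inhibitor Nfkbia fell by 1.27 and the related Nfkbiz rose by 1.29. No immediate early gene of 20 passed in this class with edgeR or DESeq2, 2 had an unadjusted p under 0.05 with edgeR, with Fos at 2309 and 2628 CPM on day 11 and 2270.4 and 2184 CPM on day 14.

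The change from day 11 to day 14 was compared between classes with a term for the library. Between proximal and thick limb cells 75 of 12142 genes (0.618%) had a higher change in proximal cells and 114 (0.939%) a lower one. Cxcl12 in thick limb cells had 38.05 and 72.1 CPM on day 11 and 57.5 and 84.97 CPM on day 14, with a difference of changes of 2.79 (SE 0.34, edgeR adjusted p = 9.55e-06). Pde1a, a cyclic nucleotide phosphodiesterase, also had a higher change in proximal cells, by 1.72. Hspa1a and Hspa1b had lower changes in proximal cells, with differences of -3.06 (SE 0.19) and -3.56 (SE 0.35). In thick limb cells Hspa1a had 263 and 263 CPM on day 11 and 73.1 and 64.4 CPM on day 14, a smaller fall from a similar day 11 level. Gjb2, connexin 26, was called with a lower change in proximal cells, where it went from 54.1 and 50.8 CPM to 165 and 127 CPM, but thick limb cells had only 0 and 0.801 CPM of it on day 11. Among 13 mitochondrially encoded genes 5 had a lower change in proximal than in thick limb cells.

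Between proximal and endothelial cells 52 of 12355 genes (0.421%) had a higher change in proximal cells and 139 (1.13%) a lower one, 191 in all against 97 without day 11 library 2, 98 without day 14 library 1 and 124 without day 14 library 2. Cxcl12, which endothelial cells also express, had 90.1 and 16.7 CPM on day 11 and 81.03 and 66.02 CPM on day 14 there, and the difference of changes was 3.01 (SE 0.37). Endothelial Cxcl12 did not pass its own test, and its days overlapped. S100a6 went the opposite way in the 2 classes, with 371 and 294 CPM on day 11 and 824 and 706 CPM on day 14 in endothelial cells and a difference of -4.07. Ifi27, an interferon-induced gene, had 30.3 and 27.3 CPM on day 11 and 43.00 and 274 CPM on day 14 in proximal cells and 296 and 254 CPM on day 11 and 246 and 136 CPM on day 14 in endothelial cells. The proximal change of Ifi27 did not pass its own test, and the call of the difference was lost without day 14 library 2. Of 29 interferon genes 5 had a lower change in proximal cells and 1 a higher one. All 4 haemoglobin genes fell in proximal cells and had a lower change there than in endothelial cells, where none passed its own test. Endothelial Hba-a1 was at 189 and 164 CPM on day 11 and at 48.6 and 479 CPM on day 14, so that the day 14 libraries lay on either side of those of day 11. Without day 14 library 2 the endothelial change of Hba-a1 was -1.98, and its difference between the classes was -1.89 in place of -4.28. Of 13 mitochondrial genes 11 had a lower change in endothelial cells.

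The control was set beside both days as a single library with no replicate. Of the genes that fell in proximal cells, the control level was nearer to day 14 than to day 11 for 82.2%, against 58.4% of the genes that were not called and 63.3% of those that rose. Thick limb (80.9% of fallen and 62.2% of uncalled genes), distal convoluted (80.7% and 62.5%), principal (80.5% and 60.3%) and intercalated cells (88.3% and 65.1%) gave the same order, and endothelial (64.4% and 55.3%) and macrophage cells (71.3% and 61.9%) lay closer together. Principal cells had the lowest share among rising genes, with 49.8% nearer to day 14. Hao2, Slc15a2 and Cxcl12 in proximal cells are examples of rises away from the control level, and Egf in thick limb cells is an example of a rise towards it.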

How the data were processed

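Single-cell RNA was measured by Drop-seq in 10 libraries of mouse kidney cortex, of which the 2 of day 11 and the 2 of day 14 were compared and the control was set beside them. The deposited tables hold whole-number counts per gene and cell barcode, read here as UMIs, and per the submitters' processing notes Bowtie2 2.2.7 and mm10 were used. How the authors filtered barcodes is not given in the sources used here. Groups came from the sample titles.

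Barcodes were kept from 500 detected genes upward and up to a mitochondrial share of 50% (Python 3.11.15, numpy 2.4.6, scipy 1.17.1, pandas 2.3.3, matplotlib 3.10.9). A cell entered 1 of 12 classes (76 markers) where at least 2 markers and 3 UMIs were present at 4 times the mean share over all cells. The proximal class took cells that met no other class and had at least 3 of its markers, with no minimum share. Clusters (scanpy 1.11.5, igraph 0.11.9) served as an alternative. Scrublet's automatic threshold marked at most 0.111% of cells and was judged not to have worked, so no doublets were removed. Counts were summed per library and class, filtered with filterByExpr, scaled by TMM and tested with edgeR 4.0.16 in R 4.3.3 (quasi-likelihood, Benjamini-Hochberg, adjusted p at most 0.05). The SE is the absolute log2 change divided by the square root of F. Changes between classes were tested as interactions with a library term. The fits were tested on simulated data.

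The members and the 21 gene lists (523 genes) were chosen with earlier results of these data known. Named genes were, per class and direction, up to 6 in proximal and 4 in other cells with the largest change among called genes whose mean log2 CPM reached 5 and whose days did not overlap, up to 4 called members of each list, and 14 injury, stress and interferon genes given in any case. Other genes were chosen after their values were seen.

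Total UMIs were 15032747, 14064268, 22341141 and 19953772. DESeq2 1.42.0, no filter on low counts, other limits on cells, clusters, a replicate block and leaving out each library were tried. Podocyte and stromal cells, with fewer than 30 cells in some library, were not tested.

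A few genes that met these rules are not reported here.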

Additional observations from a re-analysis of the deposited data

Results flagged for a closer look

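These genes had a change from day 11 to day 14 that differed between classes by the interaction test of edgeR, given as the change in proximal cells minus that in the other class on the log2 scale. Against thick limb cells, the difference was 2.79 for Cxcl12, 2.17 for the MHC class II gene H2-Ab1, 2.04 for the apoptosis gene Pmaip1 and 1.72 for Pde1a. It was -3.56 for Hspa1b, -3.55 for Gjb2, -3.06 for Hspa1a and -2.95 for the predicted gene Gm10664. H2-Ab1 did not pass its own test in proximal cells, with 42.3 and 44.2 CPM on day 11 and 73.4 and 18.9 CPM on day 14.

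Against endothelial cells, the difference was 3.80 for the phosphoglucomutase gene Pgm2, 3.01 for Cxcl12, 2.83 for the kinase gene Nuak2 and 2.45 for Ifi27. Pgm2 and Nuak2 were too low to be tested in endothelial cells alone, and neither passed in proximal cells. Endothelial Pgm2 had 21.5 and 16.7 CPM on day 11 and 2.70 and 0 CPM on day 14. The difference was -4.28 for Hba-a1, -4.24 for Hba-a2, -4.07 for S100a6 and -3.70 for the matrix Gla protein gene Mgp. In endothelial cells day 14 library 2 stood apart in Hba-a1 and Hba-a2, with 479 and 305 CPM against 48.6 and 37.8 CPM in library 1. Without it the endothelial change of Hba-a1 was -1.98, and the differences between the classes were -1.89 for Hba-a1 and -2.09 for Hba-a2. The calls of Pgm2 and Nuak2 were lost without day 14 library 1, and those of Pgm2 and Ifi27 without day 14 library 2.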

How the results depend on the processing

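The number of changed genes depended on the libraries and the tool more than the directions did. Leaving out each library in turn gave 661 to 2375 changed genes in proximal, 29 to 956 in thick limb, 563 to 839 in distal convoluted, 554 to 757 in principal, 142 to 452 in intercalated, 297 to 542 in endothelial and 76 to 176 in macrophage cells, and 132 to 193 and 97 to 129 differences of proximal from thick limb and endothelial cells. A lone library of a day was then assumed to vary like the other day. DESeq2 called 543 genes in thick limb, 295 in distal convoluted, 401 in principal, 57 in intercalated, 135 in endothelial and 74 in macrophage cells. Without a filter on low counts 3471 proximal genes were called. Endothelial cells taken from clusters gave 771 genes. Without ribosomal-protein, mitochondrial and haemoglobin genes, a setting chosen after seeing the data, intercalated cells gave 180 and macrophages 123.

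With the replicate block the calls were 2652 in proximal, 1044 in thick limb, 715 in distal convoluted, 1032 in principal, 439 in intercalated, 503 in endothelial and 230 in macrophage cells. Same-numbered libraries did not deviate together (correlations -0.079 to 0.029 by class), so the numbers were not taken to pair them.

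With mitochondrial UMIs limited to 25%, the change in share was -2.96 percentage points for thick limb, 0.265 for distal convoluted and -0.480 for intercalated cells. The distal convoluted change was 2.73 from clusters, and the podocyte change -2.70 with cells thinned to 1000 UMIs.

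Of single genes, 13 values reversed. In proximal cells these were Akr1c18 (-0.0256) and Lcn2 (0.45) in convoluted cells alone, Kap (0.0359) and Slc34a3 (-0.17) in straight cells alone, Havcr1 without day 11 library 1 or day 14 library 1 (range over the left-out libraries -0.64 to 0.24, 0.0057 without day 14 library 1), and Kap without day 14 library 2 (range -0.31 to 0.0483). In distal convoluted cells Hba-a1 (range -1.78 to 1.67) and Hbb-bs (range -2.04 to 0.86) reversed without day 11 library 1, which gave the upper values. In endothelial cells Hba-a1 reversed with the replicate block (-0.0368), from clusters (-0.25) and without day 14 library 2 (-1.98, against up to 1.37 without another library), and Hbb-bs without day 14 library 1 (0.10). The cause was not tested for any of these. Class sizes of 44 to 134 macrophages and 66 to 110 intercalated cells limit what could be detected there.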
